A study of Mus musculus with 16 samples.

Results

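The 86 genes described here encode the proteins of the cytosolic ribosome and their closest relatives. They were taken from the 32285 genes of 9 single-cell RNA-seq (scRNA-seq) matrices of CD8+ T cells by symbol: Rpl or Rps followed by a digit, together with Rplp0, Rplp1, Rplp2 and Rpsa, without the Rps6k kinases and without pseudogenes named with -ps. Of the 86, 46 encode proteins of the large subunit and 31 proteins of the small subunit, and these 77 are called core members below. A further 7 are paralogs, that is, near copies of a core member (Rpl3l, Rpl10l, Rpl22l1, Rpl36al, Rpl39l, Rps27l and Rps27rt), and Rpl7l1 and Rps19bp1 carry a matching symbol but encode no subunit. Rpl10l was listed in the rejecting matrices alone and had 0 UMIs there, so 85 members were present in all 9 matrices. Of these, 84 passed the filter on low counts, all but Rpl3l.

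The study compared CD8+ T cells of spontaneously accepted and of rejecting mouse kidney allografts with those of spleen. Accepted grafts were DBA/2J kidneys placed in male C57BL/6J recipients without immunosuppression and were sampled with the recipient spleen at 1, 3 and 24 weeks. Rejecting grafts were C57BL/6J kidneys placed in DBA/2J recipients and were sampled with the recipient spleen at 1 week, and naive spleen came from C57BL/6J mice without a transplant. All were wild type, the labels give C57BL/6J as the strain of every sample, and ages are not given in the sources used here. Each group was deposited as 1 GEO sample that holds 2 to 5 tagged libraries, 32 in all, so that the group and any batch of preparation or sequencing cannot be told apart, and p-values measure the spread between these libraries. Values are over the 56585 cells, of 72639, with at least 1 UMI (unique molecular identifier, a count of an RNA molecule) of Cd8a or Cd8b1, summed within each library. The part kept differed: 4500 of 4681 cells in naive spleen, and 5262 of 11913 and 2757 of 5891 in recipient spleen at 1 and 3 weeks. Accepted kidney kept 13963 of 16467 and 21487 of 22206 at these times. Under the 24-week labels it was 1910 of 4033 for kidney and 4293 of 4538 for spleen. Rejecting kidney kept 1687 of 2184 and rejecting spleen all 726. Libraries held 153266 to 22782080 UMIs, and the smallest, replicate 2 of rejecting spleen, had 56 cells. Of the cell barcodes, 690 occurred in more than 1 library, with at most 21 shared by any of the 496 pairs. The summed CD8 T cell markers lay between 2712 and 6289 CPM (counts scaled to a fixed library total) in every library. Of 15 kidney parenchyma markers, 11 were higher in kidney at 1 week and 14 at 3 weeks, but 1 was higher in kidney and 11 in spleen under the 24-week labels. The summed level of these markers followed the same order at 3 weeks and under the 24-week labels but not at 1 week, at 6.88 to 12.1 CPM in kidney and 32.2 to 55.0 in spleen at 1 week, 22.3 to 26.4 and 8.14 to 17.6 at 3 weeks, and 4.26 to 12.2 and 23.9 to 29.7 under the 24-week labels. The 24-week libraries thus stood against the 3-week ones of their tissue label in these markers, as in the PD-1 cells given below. Whether the 2 labels were exchanged was not tested, and every 24-week value is given by its label.

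A ribosome has a small subunit that reads the messenger RNA and a large subunit that joins the amino acids, each built of ribosomal RNA and of proteins that, in mammals, come mostly from single genes scattered over the genome. In lymphocytes these messages make up a large part of all mRNA. T cells that leave the resting state enlarge and make more ribosomes, and the mTOR kinase raises the translation of messages that begin with a C followed by a run of pyrimidines, the 5′ terminal oligopyrimidine motif that is typical of ribosomal protein mRNAs.

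The start of these mRNAs is shown first because it is the sequence feature the family is known for and because the rule for choosing the members did not use it. Each line gives the 15 bases before and the 15 bases from an annotated transcription start (RefSeq, GRCm38.p6, 5′ to 3′ on the coding strand), with a run of C followed by at least 4 pyrimidines in capitals. The first 7 genes begin with the run and are named again below for their level or change, and Rplp0 and Rps27l do not begin with it.
Rps18, chr17:33955651-33955680, minus strand: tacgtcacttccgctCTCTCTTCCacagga
Rpl35, chr2:39005117-39005146, minus strand: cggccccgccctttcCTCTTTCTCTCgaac
Rps27, chr3:90213634-90213663, minus strand: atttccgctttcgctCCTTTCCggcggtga
Rplp2, chr7:141447636-141447665, plus strand: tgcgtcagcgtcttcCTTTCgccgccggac
Rps21, chr2:180257364-180257393, plus strand: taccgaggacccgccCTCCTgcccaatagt
Rpl28, chr7:4792950-4792979, plus strand: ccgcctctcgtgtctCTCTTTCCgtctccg
Rpl15, chr14:18270972-18271001, minus strand: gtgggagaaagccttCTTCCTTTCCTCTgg
Rplp0, chr5:115559452-115559481, plus strand: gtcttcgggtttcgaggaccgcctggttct
Rps27l, chr9:66946071-66946100, plus strand: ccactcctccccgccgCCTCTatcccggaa
Among the 57 core members with an annotated start, 13 (22.8%) had such a run exactly at a start and 34 (59.6%) had one beginning within 10 bases of it on the coding strand, against 3.01% and 34.4% of the 27025 genes in the table. Annotated starts can lie some bases from the start used in a cell, and a match is a description of the letters alone. The genes are spread over the genome (on GRCm38, Rplp0 lies at chr5:115559467-115563727, Rpl29 at chr9:106429454-106431568 and Rps27l at chr9:66946086-66949516).

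Ribosomal protein genes took between 18.3% and 43.5% of all UMIs in CD8+ cells, with some groups far apart and others overlapping. The share was 41.7% ± 1.06 (SD, n = 5) in naive spleen, 36.9% ± 0.781 (n = 3) in accepted recipient spleen at 1 week and 40.6% ± 0.621 (n = 5) at 3 weeks. In accepted kidney it was 29.4% ± 0.546 (n = 3) at 1 week and 27.3% ± 0.534 (n = 5) at 3 weeks. Cells of the accepted graft thus had a lower share than cells of recipient spleen at both times. The libraries labelled 24-week spleen had 29.6% ± 1.12 (n = 3), and those labelled 24-week kidney 42.7% ± 0.912 (n = 3). Rejecting kidney had the lowest share of the 9 groups, 18.7% ± 0.552 (n = 2), and rejecting spleen had 31.6% ± 3.00 (n = 3). A share is relative: less ribosomal protein RNA and more of other RNA cannot be told apart from it. Depth differed too, with library medians of 3730.5 to 4985 UMIs per cell in naive spleen. Medians were 2154.5 to 3673.5, 3595 to 5322.5 and 2413 to 2757 in recipient spleen at 1, 3 and labelled 24 weeks. In accepted kidney they were 2069 to 3717, 1969 to 2989 and 4518 to 6069 in that order. Rejecting kidney had 1764 to 3068 and rejecting spleen 1838 to 2447.5. Whether depth bears on the share was not tested.

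**Figure D1:**
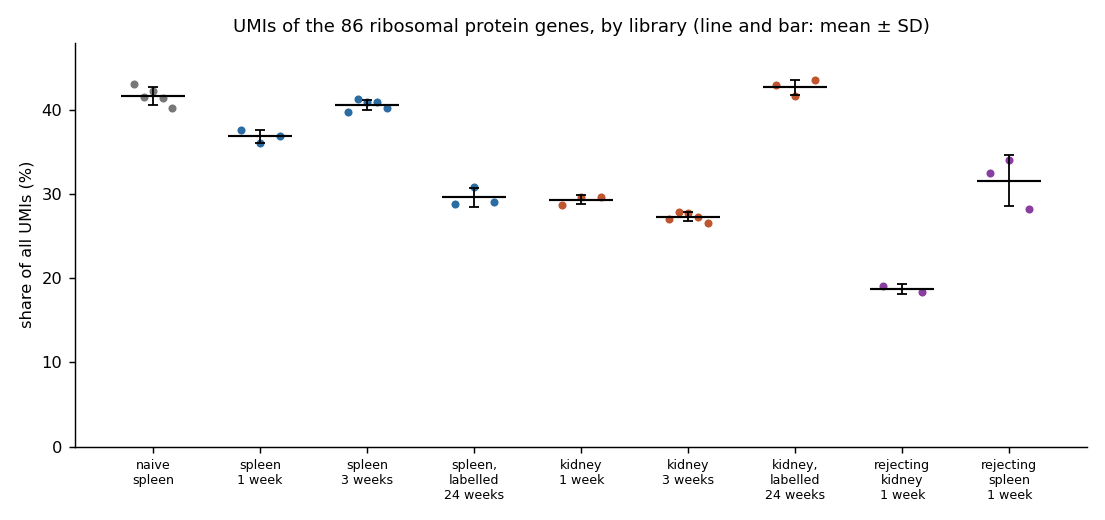
Share of all UMIs taken by the 86 ribosomal protein genes (percent, y axis) in each of the 32 libraries, by group (x axis), with the mean and SD of each group; cells with a Cd8a or Cd8b1 UMI. The accepted kidney libraries at 1 and 3 weeks lie between 26.5% and 29.7%, below all naive and accepted recipient spleen libraries of those times, the rejecting kidney libraries lie lowest, and under the 24-week labels kidney is above spleen.

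Core members spread widely in level within each group. Each UMI counts 1 molecule at its 3′ end, and CPM was not corrected for length. The balance of shorter and longer core members differed between groups, as given below. Whether the order of levels goes with length was not tested. The levels of members that share their 3′ sequence with other genes also depend on how shared reads were assigned: of the 90-base windows in the last 400 bases of the mRNA, 83.3% in Rpl7a and 0% in Rps24 occur in transcripts of other genes. The windows are of 1 transcript a gene, that with the longest coding sequence, whose end need not be the one used in the cells. For Rps24 it has 1613 bases, of which 399 are coding. In naive spleen Rps24, a small subunit protein, was highest of the core members at 12479 CPM, followed by Rplp1 at 11383 CPM, a protein of the stalk that recruits elongation factors, and the lowest was Rpl7a at 1455 CPM. Rps24 also led in recipient spleen at 3 weeks (11312 CPM) and under both 24-week labels (9109 CPM in spleen and 14264 CPM in kidney). Rpl13 of the large subunit led at 1 week, with 12356 CPM in spleen and 8627 CPM in accepted kidney, and Rps15a of the small subunit led in accepted kidney at 3 weeks with 7734 CPM. Rps29 led in rejecting kidney (6317 CPM) and rejecting spleen (17592 CPM), and in both Rpl29 was the lowest, at 142 and 212 CPM. The median core member fell between 2444 CPM in rejecting kidney and 5391 CPM in naive spleen.

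The comparison of the graft with recipient spleen at 3 weeks asked how CD8+ cells inside an accepted graft differ from those outside it. Nearly every core member was lower in the kidney. The share of UMIs was 13.3 percentage points lower (exact permutation test, two-sided, p = 0.00794, the smallest 5 against 5 libraries allow, adjusted p = 0.0595 over 10 comparisons) and the groups did not overlap. That p takes the kidney and spleen libraries as independent, although they may come from the same recipients, which the labels do not say. The share was not tested with the libraries paired by recipient. By gene, 73 of 77 core members were lower and 0 higher (edgeR quasi-likelihood test, Benjamini-Hochberg adjusted), where 59.3% of the 12247 genes tested passed in either direction, 42.7% higher and 16.6% lower. The median core log2 fold change was -0.59, against 0.27 over all genes. The large subunit had 43 of 46 lower and the small subunit 30 of 31.

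Rpl35, a large subunit protein near the exit of the nascent chain, had the largest fall. Its CPM was 689.5 to 1031 in the 5 kidney libraries (median 869.6) and 1515 to 2734 in the 5 spleen libraries (median 2201), with no overlap (log2 fold change -1.38 ± 0.17 SE, adjusted p = 6.1e-09). Rplp0, the base of the ribosomal stalk, had 2448 to 2720.1 CPM in kidney and 4824 to 6292 in spleen (-1.13 ± 0.08, 3.7e-14). Every kidney library was thus below every spleen library for both. Rps20, Rps19 and Rpl15 fell by 1.04, 1.03 and 1.03 on the log2 scale (adjusted p of 5.8e-16 to 7.7e-15), the stalk proteins Rplp1 and Rplp2 by 0.80 and 0.47 and Rpsa, a small subunit protein also known as the laminin receptor, by 0.69. The 4 core members that did not pass were Rpl13a (0.06 ± 0.06), Rpl27 (0.03 ± 0.07), Rps15a (-0.03 ± 0.08) and Rpl38 (-0.29 ± 0.17), and TMM or DESeq2 scaling, which set the median of all genes near 0, gave -0.21 or -0.19 for Rpl13a and -0.24 or -0.23 for Rpl27. Rps15a passed with TMM (-0.30) and DESeq2 (-0.28), and Rpl38 with TMM (-0.56), DESeq2 (-0.54), the replicate block (-0.27) and the compared groups alone (-0.29). Scaled to the sum of the members alone, a different question, 22 members were relatively higher and 20 lower in kidney (71.9% and 7.52% of all genes), with log2 fold changes of 0.64 for Rpl13a and 0.54 for Rps15a among the higher, while Rplp2 (0.11) and Rpsa (-0.11) did not pass. Summed myeloid markers were 62.9 to 167 CPM in kidney and 2.38 to 9.66 CPM in spleen with all 6 of 6 detected in both, and summed B cell markers 11.6 to 26.4 and 103 to 286 CPM with 4 of 4 detected. Mitochondrial genes took 2.20% ± 0.129 of UMIs in kidney and 4.39% ± 0.406 in spleen, and Malat1 3.66% ± 0.120 and 2.04% ± 0.158 (SD, n = 5). Without cells that carried a UMI of another cell type the share differed by -13.8 points. The share of UMIs counted without mitochondrial genes and Malat1 differed by -14.4 points.

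At 1 week the kidney was also below the spleen, with a difference of -7.50 points in the UMI share (exact permutation test, p = 0.1, the smallest 3 against 3 libraries allow, adjusted p = 0.111), without overlap. Here too the p takes the kidney and spleen libraries as independent, though they may share recipients, and a paired difference was not tested. Of the core members 49 were lower and 1 higher, where 49.5% of all genes passed (29.2% higher and 20.3% lower), and the median core log2 fold change was -0.30 against 0.07 over all genes. Rps27, the small subunit protein with a zinc finger, had 2133, 2854 and 1303 CPM in kidney and 3890.2, 3786 and 4318 in spleen (-0.93 ± 0.22, adjusted p = 0.00058). The 3 kidney libraries were all lower, and varied more among themselves than the spleen libraries. Rpl12 (-0.74 ± 0.07), Rps24 (-0.74 ± 0.09) and Rpl5 (-0.73 ± 0.09), which carries the 5S ribosomal RNA, followed. Rplp0 did not pass (-0.19 ± 0.11, adjusted p = 0.14), but did with TMM (-0.28), with totals without the members (-0.35), without cells bearing UMIs of other types (-0.25) and without replicate 3 of kidney (-0.30). The member that was higher, Rpl41, which has the shortest coding sequence of the set (0.37 ± 0.14, adjusted p = 0.028), no longer passed with TMM (0.28), with DESeq2 (0.32), with totals without the members (0.21) or without any of 4 libraries (replicates 2 and 3 of kidney and 1 and 2 of spleen, 0.32 to 0.37). Summed B cell markers were 8.86 to 9.26 CPM in kidney and 395 to 839 CPM in spleen, and without cells that carried a UMI of another cell type the share differed by -8.42 points. Summed myeloid markers were 40.9 to 98.4 and 11.7 to 20.6 CPM, and Mki67 and Top2a together 403 to 836 and 96.4 to 229 CPM. Mitochondrial genes took 4.08% ± 0.409 and 5.90% ± 0.360 of UMIs. The share differed by -7.325 points over cells without a Mki67 or Top2a UMI, and by -8.75 points without mitochondrial genes and Malat1.

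From 1 to 3 weeks members moved apart within each tissue with plain totals, whereas with TMM or DESeq2 most of those called in kidney fell. In accepted kidney 24 core members were higher and 36 lower at 3 weeks, where 70.4% of all genes passed (50.1% higher and 20.3% lower), with a median core log2 fold change of -0.12 against 0.40 over all genes. The split depended on scaling: over the 84 members it was 24 higher and 39 lower with plain totals, 7 and 57 with TMM (33.5% and 32.4% of all genes) and 7 and 58 with DESeq2 (33.2% and 32.0%). The share fell by 2.06 points (exact permutation test, p = 0.0357, the smallest 3 against 5 libraries allow, adjusted p = 0.0595). Mitochondrial genes took 4.08% ± 0.409 of UMIs at 1 week (SD, n = 3) and 2.20% ± 0.129 at 3 weeks (n = 5), and Malat1 1.07% ± 0.354 and 3.66% ± 0.120. Counted without these genes the share differed by -1.96 points, and with totals without them 24 members were higher and 38 lower.

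Rplp0 had the largest fall of the core members in the kidney, from 6274, 6379 and 7823 CPM at 1 week to 2448 to 2720.1 CPM at 3 weeks (-1.43 ± 0.09, adjusted p = 3.1e-15). The ranges lay far apart. Rpl15 (-1.07 ± 0.08), Rpl10a (-0.92 ± 0.08), Rpl7a (-0.89 ± 0.07) and Rps2 (-0.88 ± 0.11) followed, and Rpsa was lower by 0.85 on the log2 scale. In the other direction Rps27 went from 1303 to 2854 CPM up to 3804 to 5124 CPM (1.12 ± 0.20, adjusted p = 8.2e-06), and Rps21 (1.07 ± 0.16), Rpl23a (0.92 ± 0.09) and Rps15 (0.87 ± 0.09) were higher with it. The stalk showed both directions. Rplp2 rose from 2276, 2488 and 2669.9 CPM to 4112 to 4538 CPM (0.82 ± 0.08, adjusted p = 1.5e-10) while its partner Rplp0 fell, and Rplp1 rose by little (0.28 ± 0.07), a direction that TMM (-0.08) and DESeq2 (-0.08) turned. Dividing cells, those with an Mki67 or Top2a UMI, were 14.3% to 33.5% of kidney cells at 1 week and 4.85% to 6.55% at 3 weeks, each cell thinned at random to 1000 UMIs. Without thinning, 8310 of 13963 cells at 1 week and 18700 of 21487 at 3 weeks had no such UMI, and over these cells the members split into 19 higher and 42 lower and the share fell by 3.48 points.

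In the recipient spleen the share rose over the same interval, by 3.77 points (exact permutation test, p = 0.0357, adjusted p = 0.0595), without overlap. Of the core members 38 were higher and 24 lower, where 39.5% of all genes passed (24.4% higher and 15.0% lower), with medians of 0.19 and 0.14. With TMM the 84 members split into 23 higher and 29 lower (14.5% and 22.2% of all genes), with a median of -0.03, and with DESeq2 into 29 and 26 (1961 and 2508 of the 12247 genes), against 40 and 25 with plain totals. Rps15 rose from 2058, 2088 and 2178 CPM to 3829 to 5333 CPM (1.17 ± 0.09, adjusted p = 6.5e-12), Rplp2 from 2622 to 3179.7 CPM up to 5776 to 6634 CPM (1.05 ± 0.09), and Rpl23a (1.04 ± 0.09), Rpl31 (0.92 ± 0.13) and Rps21 (0.89 ± 0.16) were higher as well. Rpl9 (-0.55 ± 0.08), Rpl3, the catalytic-centre protein (-0.50 ± 0.08), Rplp0 (-0.49 ± 0.09) and Rpl19 (-0.45 ± 0.06) were lower. Summed B cell markers were 395 to 839 CPM at 1 week and 103 to 286 CPM at 3 weeks, and without cells bearing UMIs of other types the share rose by 3.07 points and the members split into 36 and 25. Mitochondrial genes took 5.90% ± 0.360 of UMIs at 1 week and 4.39% ± 0.406 at 3 weeks, and Malat1 1.28% ± 0.189 and 2.04% ± 0.158. Mki67 and Top2a together had 96.4 to 229 and 8.51 to 13.6 CPM. The share rose by 2.64 points over cells without a Mki67 or Top2a UMI, and by 3.71 points without mitochondrial genes and Malat1.

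**Figure D2:**
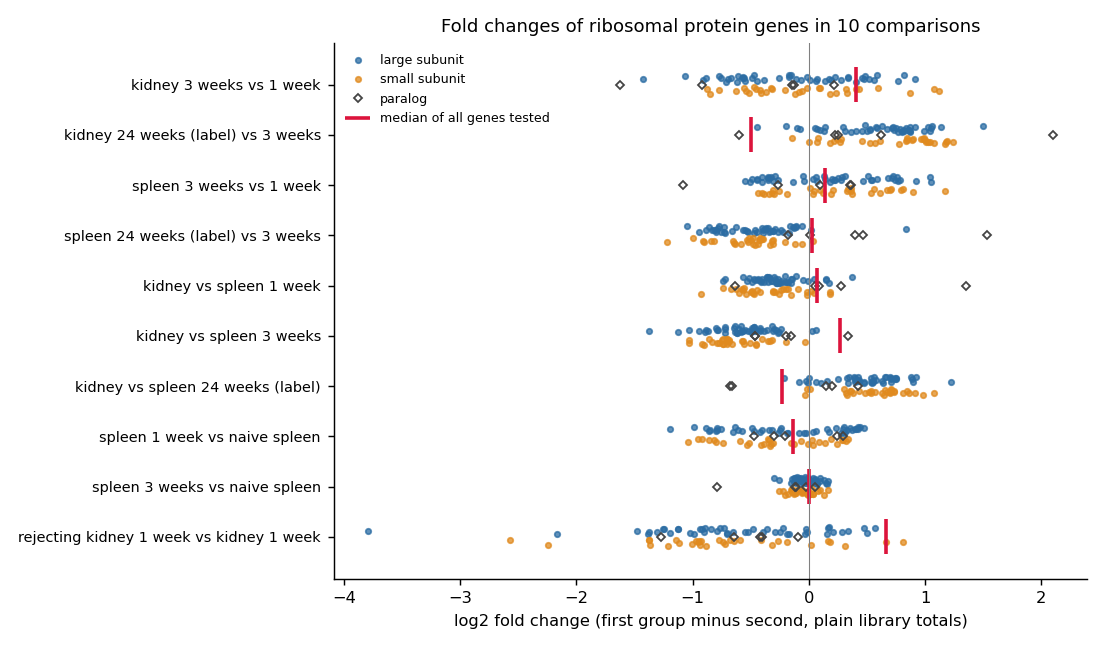
Log2 fold change (x axis, first group minus second, plain library totals) of each core and paralog member that was tested, in 10 comparisons (y axis), with the median of all 12247 genes as a red bar. At 3 weeks kidney against spleen, 73 of 77 core members are lower, whereas the changes from 1 to 3 weeks spread to both sides of 0.

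The change from 1 to 3 weeks went with the coding length of the core members, in both tissues. The coding length of the 77 core members runs from 138 to 1257 bases with a median of 468. Spearman's rho of length with the log2 fold change was -0.659 in kidney and -0.757 in spleen over 77 genes, which share the same libraries and fit, whereas it was 0.267 and 0.237 over 4975 other genes of the same length range. The 38 shorter members had a median of 0.26 in kidney and 0.55 in spleen, and the 39 longer ones -0.49 and -0.29. The shorter members took 43.0% ± 2.87 of core UMIs in kidney and 41.6% ± 1.82 in spleen at 1 week (SD, n = 3 each), against 54.0% ± 1.18 and 52.7% ± 1.59 at 3 weeks (n = 5 each) and 53.0% ± 1.87 in naive spleen (n = 5). The 1-week libraries of accepted recipients were thus low in both tissues. The libraries labelled 24-week kidney, at 48.2% ± 1.68 (n = 3), also lay below every naive and 3-week library, and those labelled 24-week spleen had 53.0% ± 1.29 (n = 3). For the 24-week kidney label rho was 0.521 against 3 weeks and 0.612 against the 24-week spleen label. Rejecting kidney of the same time had 52.4% ± 0.588 (n = 2) and rejecting spleen 57.5% ± 4.72 (n = 3). In the 2 tissues, whose groups share no library, 22 core members were higher at 3 weeks in both, 24 lower in both, 5 lower in kidney and higher in spleen, and 0 the reverse, that is 28.6%, 31.2%, 6.49% and 0% of them, against 20.6%, 10.4%, 0.759% and 1.58% of the 12247 genes tested. Time and any batch of these libraries cannot be told apart.

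**Figure D3:**
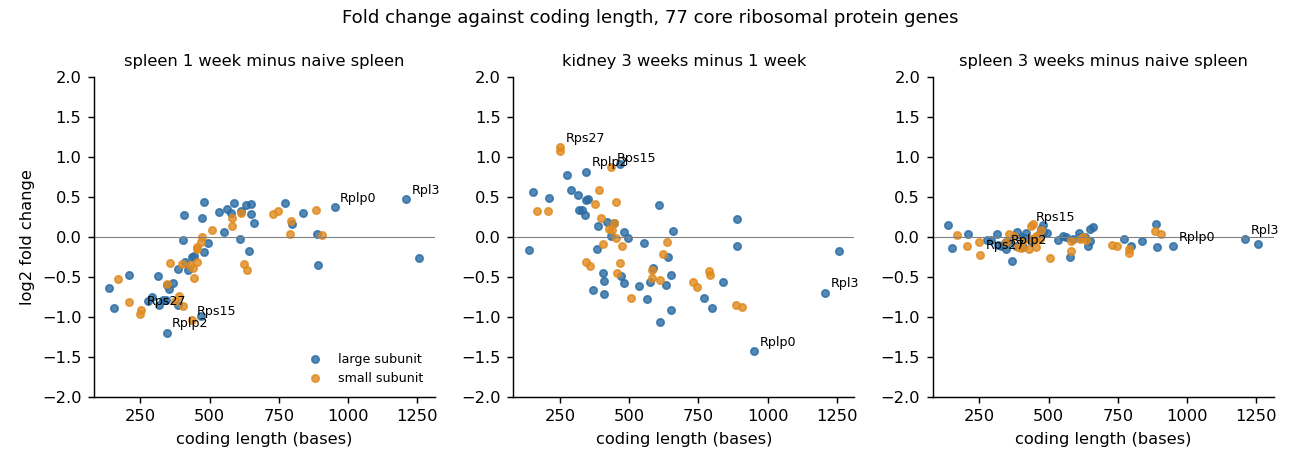
Log2 fold change (y axis) of the 77 core members against coding length in bases (x axis) in 3 panels: accepted spleen 1 week against naive spleen, accepted kidney 3 weeks against 1 week, and accepted spleen 3 weeks against naive spleen. The points rise with length in the first panel (rho 0.77), fall in the second (-0.659) and show little trend in the third (0.059).

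The difference between the tissues in their 1 to 3 week change was tested directly. The share fell in kidney and rose in spleen, a difference of -5.83 points (exact permutation of the time labels within each tissue, p = 0.000638, the smallest it can give). That p takes the kidney and spleen libraries as independent, though they may share recipients. Its null is that neither tissue changed, and each changed without overlap, so it cannot decide on the difference between the changes alone. With the time labels permuted per library number on the difference between the tissues, added after the data were seen, the exact permutation p was 0.0357, the smallest 3 against 5 allow. In the interaction term 30 core members had a lower change in kidney than in spleen and 1 a higher one, where 30.4% of all genes passed (22.1% higher and 8.30% lower). Over the 84 members, 34 passed with plain totals, 53 with TMM (28.0% of all genes), 60 with DESeq2 (28.5%) and 22 when scaled to the members alone (40.6%). Rpl28 had the largest difference among core members (-1.02 ± 0.12, adjusted p = 1.5e-07). It went from 2984, 3171 and 3543 CPM to 1769.5 to 2076 CPM in kidney, and from 2602, 2883 and 3251 CPM to 3437 to 3796 CPM in spleen. Rpl41 (-0.95 ± 0.18), Rpl35 (-0.94 ± 0.27), Rplp0 (-0.94 ± 0.14) and Rps2 (-0.89 ± 0.16) followed. Rpl13a was the member with the higher change in kidney (0.34 ± 0.10, adjusted p = 0.012), and it no longer passed with TMM (0.16), DESeq2 (0.14), totals without the members (0.21), without dividing cells (0.25) or without replicate 3 of kidney at 1 week (0.25).

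Recipient spleen was set against naive spleen to see what transplantation changed outside the graft. At 1 week the share differed by -4.86 points (exact permutation test, p = 0.0357, adjusted p = 0.0595), without overlap. Of the core members 40 were lower and 20 higher, where 48.5% of all genes passed (19.5% higher and 29.0% lower), with medians of -0.24 and -0.13. TMM gave 30 higher and 25 lower members (25.7% and 18.4% of all genes) and DESeq2 29 and 28 (3061 and 2323 of the 12247 genes), against 20 and 42. Rplp2 had 2957, 2622 and 3179.7 CPM against 6027 to 7192 CPM in naive spleen (-1.20 ± 0.09, adjusted p = 2.5e-13), and Rps15 (-1.04 ± 0.09), Rpl23a (-0.99 ± 0.09), Rps21 (-0.96 ± 0.16) and Rps27 (-0.92 ± 0.20) were lower too. Rpl3 (0.48 ± 0.08), Rpl29 (0.44 ± 0.08), Rpl19 (0.42 ± 0.06) and Rplp0 (0.37 ± 0.09) were higher. Rplp0 stood at 7712 to 7861 CPM, above the 5355 to 6296 CPM of every naive library. Here the change rose with coding length (rho 0.77 over 77 core members, -0.219 over the 4975 other genes). Summed B cell markers were 27.9 to 55.6 CPM in naive spleen and 395 to 839 CPM at 1 week. Without cells bearing UMIs of other types the share differed by -3.68 points and the members split into 24 and 40. Mitochondrial genes took 5.90% ± 0.360 of UMIs at 1 week and 4.17% ± 0.371 in naive spleen, and Malat1 1.28% ± 0.189 and 2.21% ± 0.212. Mki67 and Top2a together had 96.4 to 229 and 4.90 to 9.73 CPM. The share differed by -3.655 points over cells without a Mki67 or Top2a UMI, and by -4.85 points without mitochondrial genes and Malat1.

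At 3 weeks recipient spleen lay close to naive spleen. The share was 1.09 points lower, with overlapping ranges of 39.7% to 41.3% and 40.2% to 43.1% (exact permutation test, p = 0.0873). Of the core members 2 passed, where 6.89% of all genes did (4.21% higher and 2.69% lower): Rps10 (-0.26 ± 0.07, adjusted p = 0.022) and Rpl9 (-0.25 ± 0.07, adjusted p = 0.031). Rps10 lost its call without any 1 of replicates 3, 4 and 5 of recipient spleen or 1 and 5 of naive spleen, and Rpl9 without any 1 of replicates 2 to 5 of recipient spleen or 1, 3 and 4 of naive spleen. Rps10 also lost it without cells bearing UMIs of other types (-0.24). Scaled to the members alone, neither Rps10 (-0.22) nor Rpl9 (-0.21) passed. The count of members was 0 without replicate 3 of recipient spleen and 4 without replicate 1. In all cells of the matrices, with or without a CD8 UMI, the share differed by -2.51 points (exact permutation test, p = 0.00794), and without cells bearing a UMI of other types by -0.613 points. Summed B cell markers were 103 to 286 CPM in recipient and 27.9 to 55.6 CPM in naive spleen.

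Under the 24-week labels kidney and spleen changed places. The libraries labelled kidney had a share 13.1 points above those labelled spleen (exact permutation test, p = 0.1, the smallest 3 against 3 allow), with 62 core members higher and 0 lower, where 45.6% of all genes passed (12.8% higher and 32.8% lower), and medians of 0.54 and -0.23. The permutation p again takes the libraries of both labels as independent. Rplp0 had 7149.9, 7225 and 7052 CPM in the libraries labelled kidney and 2750.0, 3312 and 3101 in those labelled spleen (1.23 ± 0.11, adjusted p = 8.4e-12). Rps19 (1.07 ± 0.08) and Rps20 (0.98 ± 0.09) showed the same direction. Cells with a Pdcd1 UMI (PD-1) were 0% to 0.149% of the cells in the libraries labelled kidney and 29.2% to 37.2% in those labelled spleen, counted after thinning each cell at random to 1000 UMIs. Summed B cell markers were 78.4 to 209 CPM under the kidney and 13.9 to 42.8 CPM under the spleen label, summed myeloid markers 0.711 to 2.75 and 13.6 to 44.8 CPM, mitochondrial genes 5.29% ± 0.0912 and 3.59% ± 0.166 of UMIs, and Malat1 1.60% ± 0.0622 and 2.48% ± 0.266. Counted without mitochondrial genes and Malat1 the share was 14.4 points higher under the kidney label.

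Each 24-week label was also set against the 3-week libraries of its own tissue label. In kidney 62 core members were higher and 2 lower, where 65.1% of all genes passed (13.6% higher and 51.5% lower), with medians of 0.75 and -0.50 and a share 15.4 points higher (exact permutation test, p = 0.0357, adjusted p = 0.0595). Summed myeloid markers were 0.711 to 2.75 CPM in the libraries labelled 24-week kidney and 62.9 to 167 CPM at 3 weeks, summed B cell markers 78.4 to 209 and 11.6 to 26.4 CPM, mitochondrial genes 5.29% ± 0.0912 and 2.20% ± 0.129 of UMIs, and Malat1 1.60% ± 0.0622 and 3.66% ± 0.120. Counted without mitochondrial genes and Malat1 the share was 16.9 points higher. Rplp0 (1.5 ± 0.09), Rps10 (1.24 ± 0.08), Rps19 (1.19 ± 0.07), Rps20 (1.18 ± 0.07) and Rps7 (1.17 ± 0.07) led. The members that fell, Rpl38 (-0.45 ± 0.20) and Rpl23a (-0.20 ± 0.09), turned direction with TMM (0.04 and 0.29) and DESeq2 (0.01 and 0.26), and lost their call without single libraries: Rpl38 without replicate 2 or 3 at 3 weeks or 1 or 2 labelled 24 weeks, and Rpl23a without replicate 3, 4 or 5 at 3 weeks or any 1 labelled 24 weeks. In spleen 63 were lower and 1 higher, where 50.7% of all genes passed (27.3% higher and 23.4% lower), with medians of -0.46 and 0.02 and a share that differed by -11.01 points (exact permutation test, p = 0.0357, adjusted p = 0.0595). Summed B cell markers were 13.9 to 42.8 CPM in the libraries labelled 24-week spleen and 103 to 286 CPM at 3 weeks, and summed myeloid markers 13.6 to 44.8 and 2.38 to 9.66 CPM. Rps28 (-1.22 ± 0.20), Rpl35 (-1.05 ± 0.20), Rps29 (-0.99 ± 0.18), Rpl10 (-0.95 ± 0.12) and Rps19 (-0.91 ± 0.07) fell most. Rpl27 of the large subunit was the exception: it had 3021, 3194 and 2985 CPM in the libraries labelled 24-week spleen and 1648 to 1760.4 CPM at 3 weeks (0.83 ± 0.08, adjusted p = 5.7e-11). In the libraries labelled 24-week kidney it was as high, at 3013, 2902 and 3233 CPM.

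Rejecting kidney at 1 week was compared with accepted kidney of the same time. The share differed by -10.6 points (exact permutation test, p = 0.2, the smallest 2 against 3 libraries allow) and 55 core members were lower against 6 higher, where 66.3% of all genes passed (52.8% higher and 13.5% lower), with medians of -0.73 and 0.67. TMM gave 0 higher and 73 lower members (30.6% and 30.3% of all genes) and DESeq2 0 and 72 (31.5% and 28.0%), against 7 and 58. The cells came from DBA/2J recipients in the rejecting and C57BL/6J recipients in the accepting model, so that rejection, recipient strain and library group cannot be told apart. Dividing cells were 18.9% and 56.7% of the rejecting kidney libraries and 14.3% to 33.5% of the accepted ones after thinning. Over the 908 of 1687 rejecting and 8310 of 13963 accepted cells that had no Mki67 or Top2a UMI before thinning, the share differed by -11.2 points. Mitochondrial genes took 1.38% ± 0.0119 of UMIs in rejecting (SD, n = 2) and 4.08% ± 0.409 in accepted kidney (n = 3), and summed myeloid markers were 133 to 165 CPM (5 of 6 detected) and 40.9 to 98.4 CPM (6 of 6). Counted without mitochondrial genes and Malat1 the share differed by -11.6 points.

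Rpl29, a large subunit protein, set the rejecting model apart from all other groups. It had 145 and 139 CPM in rejecting kidney and 218, 241 and 175 CPM in rejecting spleen, whereas no library of the other 7 groups was below 1151 CPM. Against accepted kidney, with 1866, 1915 and 2139 CPM, it fell by 3.795 on the log2 scale (SE 0.12, adjusted p = 2.6e-24). Rps18 showed the same pattern, with 812 and 879 CPM in rejecting kidney and 803 to 1683 CPM in rejecting spleen against 4562 to 5447 CPM in accepted kidney (-2.58 ± 0.15). Rps2 (-2.24 ± 0.16), Rpl9 (-2.17 ± 0.12) and Rpl10 (-1.48 ± 0.15) followed. For Rpl29 and Rps18 the low values were thus in the graft and the spleen of the rejecting model alike. Of the 90-base windows in the last 400 bases of the mRNA, 37.6% in Rpl29, 53.7% in Rps18 and 100% in Rpl9 and Rpl10 also occur in transcripts of other genes, so that counts of these genes depend on how shared reads were assigned. Over the core members 60 of 77 shared at least 1 such window, and 31 more than 50% of them, in the 1 transcript taken for each. The higher core members were Rps29 (0.81 ± 0.22), Rps15 (0.66 ± 0.11), Rpl6 (0.57 ± 0.14), Rpl41 (0.50 ± 0.16), Rpl31 (0.48 ± 0.16) and Rpl23a (0.28 ± 0.11), of which Rpl6, Rpl41, Rpl31 and Rpl23a turned direction with TMM and DESeq2, Rps15 with TMM, and Rps29 no longer passed with either (0.14 and 0.19). Rpl31 (0.28) and Rpl41 (0.24) also lost their call without replicate 3 of rejecting kidney, as Rpl23a did without replicate 2 of rejecting kidney (0.20) or either of replicates 2 and 3 of accepted kidney (0.26 and 0.24).

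**Figure D4:**
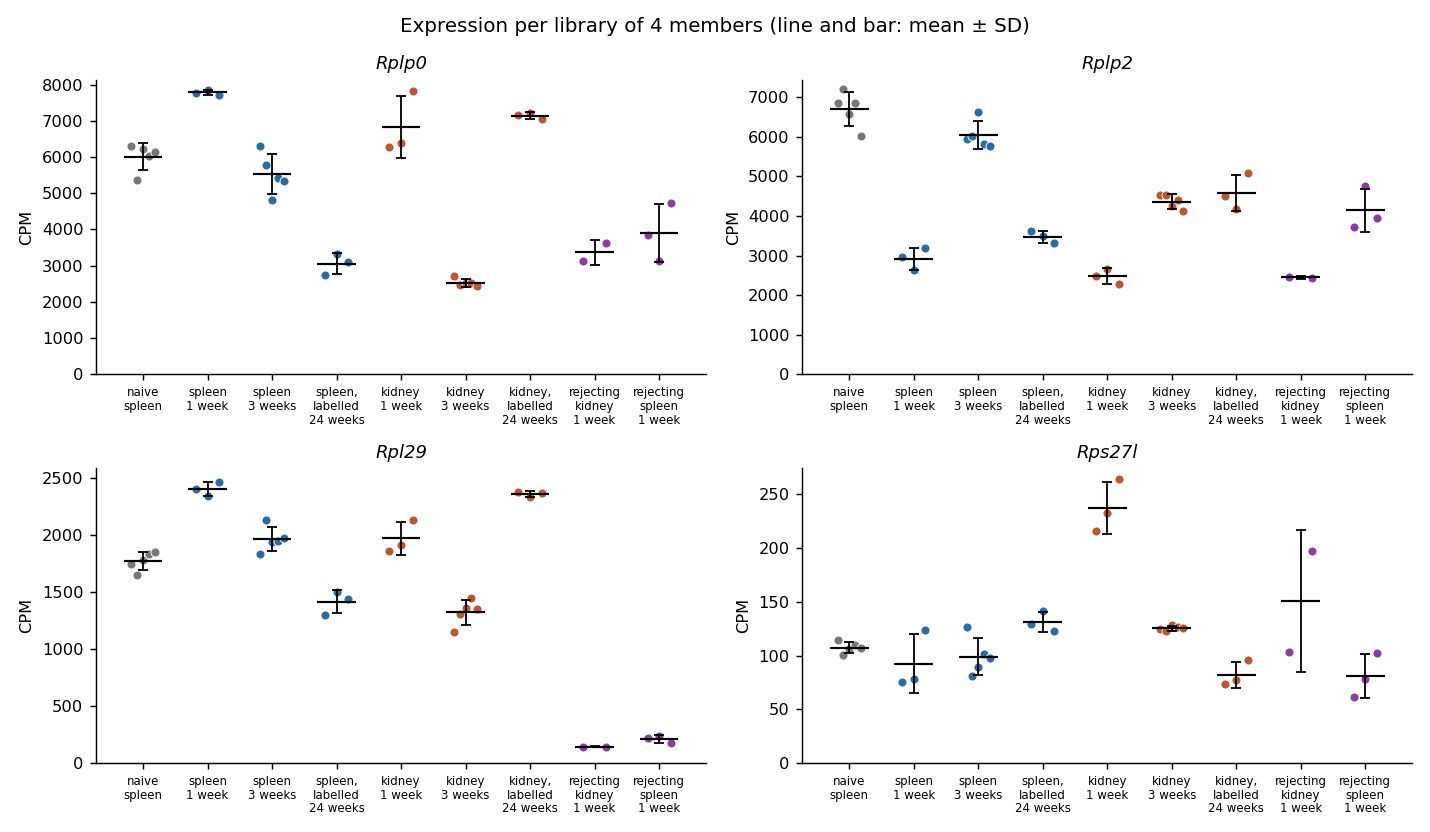
CPM per library (y axis) of Rplp0, Rplp2, Rpl29 and Rps27l in 9 groups (x axis), each point a library, with the mean and SD. Rplp0 falls and Rplp2 rises from 1 to 3 weeks in kidney, Rpl29 is at 139 to 241 CPM in the 5 rejecting libraries, and Rps27l is highest in accepted kidney at 1 week.

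Among the paralogs, Rps27l, a close copy of Rps27 known as a target of p53, had 216, 233 and 264 CPM in accepted kidney at 1 week and 75, 78.6 and 124 CPM in spleen (1.35 ± 0.16, adjusted p = 1.2e-08), while Rps27 was lower in kidney. At 3 weeks Rps27l was at 123 to 128 CPM in kidney (-0.92 ± 0.14 against 1 week), and its change differed from that of spleen by -1.01 ± 0.21 (adjusted p = 0.00033). Against spleen at 3 weeks the difference was 0.34 ± 0.13 (adjusted p = 0.026), which did not pass with TMM (0.07), DESeq2 (0.09), totals without the members (0.05) or without replicate 2 (0.27) or 3 (0.30) of spleen. Under the 24-week labels it was lower in kidney than in spleen (-0.67 ± 0.17), a call lost with TMM (-0.40) and with totals without the members (-0.37). No 90-base window of the end of the Rps27l transcript that was used occurs in another gene.

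Rps27rt, an intronless copy of Rps27, had 185, 193 and 214 CPM in the libraries labelled 24-week spleen and 265, 183 and 341 CPM in those labelled 24-week kidney, above every library of the other groups, which lay between 45.2 and 169 CPM. It was higher than at 3 weeks by 1.53 ± 0.17 under the spleen label and 2.10 ± 0.16 under the kidney label. Of its windows 89.8% occur in other genes and of those of Rps27 98.4%, so the pair cannot be counted apart with certainty. Rpl22 and its paralog Rpl22l1, which can take its place in the ribosome, did not pass from 1 to 3 weeks in kidney (-0.16 ± 0.09 and -0.15 ± 0.08) but did with TMM (-0.52 and -0.51), and both were lower in rejecting than in accepted kidney (-0.71 ± 0.12 and -1.27 ± 0.11), Rpl22l1 from 778, 833 and 864 CPM to 306 and 377. Scaled to the members alone Rpl22 did not pass there (-0.059). Their changes differed between the tissues by -0.44 ± 0.13 and -0.51 ± 0.12, and that of Rpl36al by -0.47 ± 0.10, and none of these 3 passed when scaled to the members alone (-0.19, -0.27 and -0.23). Rpl39l was near the floor, at 0 to 8.56 CPM in any library, too low to read a direction from. Its call as lower in kidney at 3 weeks than at 1 week (-1.63, adjusted p = 0.0067) was lost without replicate 2 of kidney at 1 week (-0.56).

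Within libraries, cells carrying UMIs of a cell state marker were compared with the other cells of the same library, all thinned to 1000 UMIs. Marker and members were counted among the same UMIs, so a cell with fewer member UMIs had more UMIs in which a marker could appear. That alone would lower the share of marked cells, and these tests cannot tell it from a difference of cell state. Dividing cells had a lower share in 8 of 8 accepted kidney libraries with at least 20 such cells, with a mean difference of -1.47 ± 1.33 points (SD; exact sign-flip permutation test, p = 0.00781, adjusted p = 0.0312 over 4 tests). In recipient spleen they had a lower share in 5 of 6 libraries, with a mean of -5.63 ± 5.12 points (exact permutation p = 0.0625, adjusted p = 0.0833), which did not pass. Thinning is random: in each of 4 further draws, added after the data were seen, the share was lower in 6 of 6 spleen libraries (exact permutation p = 0.0313, the smallest 6 libraries allow), and in kidney it was lower in 7 or 8 of 8. The difference was -3.09 to -3.00 points in kidney at 1 week and -1.06 to -0.274 points at 3 weeks. In spleen it was -11.4 to -8.62 points at 1 week and -3.06 to 0.365 points under the 24-week label. It was -1.60 and -2.78 points in rejecting kidney, and -10.1 and -7.90 points in 2 rejecting spleen libraries.

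Cells with a Pdcd1 UMI had a lower share in 7 of 8 accepted kidney libraries, with a mean difference of -0.331 ± 0.199 points (exact permutation p = 0.0156, adjusted p = 0.0312), and without thinning the difference was -0.264 points (exact permutation p = 0.242). Of the spleen libraries only the 3 labelled 24 weeks held enough such cells, with a mean difference of -0.948 points (exact permutation p = 0.25, the smallest 3 libraries allow). The counting of Pdcd1 and members among the same UMIs, described above, limits these differences too. The spleen value depended on which libraries held enough cells. Without thinning it was -5.56 points over 6 libraries (exact permutation p = 0.0625), with -11.7 to -9.71 points at 1 week and -1.16 to 0.026 points under the 24-week label, and in 4 further draws it was -1.17 to -1.001 points over 3 libraries and -3.41 points over 4.

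**Figure D5:**
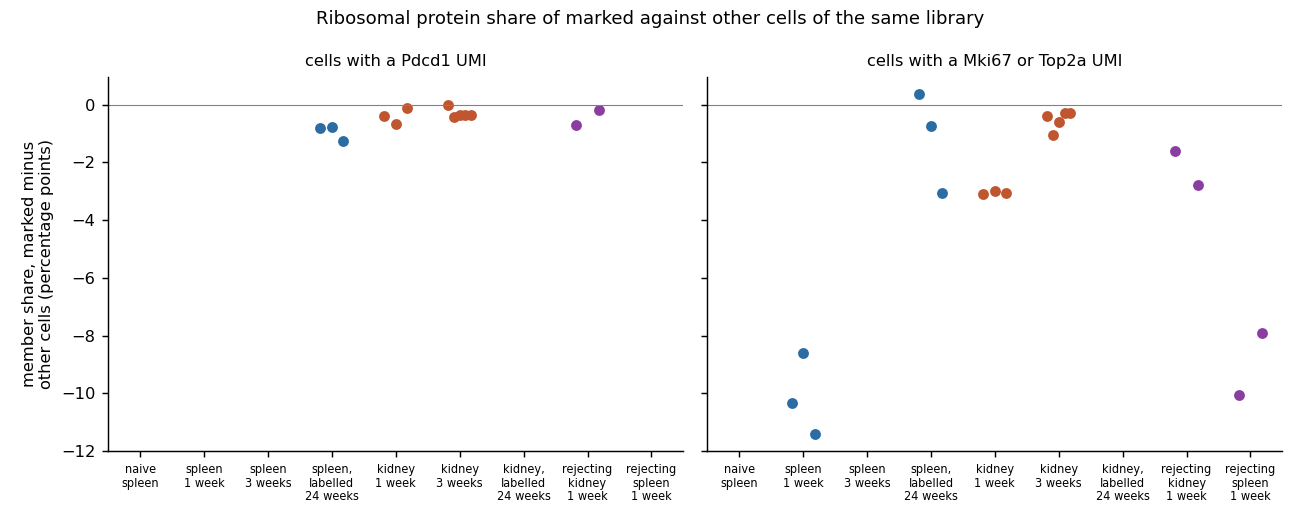
Difference in ribosomal protein share (percentage points, y axis) between marked and other cells of the same library, one point per library, by group (x axis): cells with a Pdcd1 UMI (PD-1) on the left and dividing cells (Mki67 or Top2a) on the right, cells thinned to 1000 UMIs. The dividing-cell points lie below 0 except 1 spleen library labelled 24 weeks, down to -11.4 points in recipient spleen at 1 week.

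Other genes of the translation machinery were read from 4 lists: 20 translation factors and associated proteins, 78 proteins of the mitochondrial ribosome, 15 ribosome assembly factors and 14 genes of the mTOR pathway and its targets. The mitochondrial ribosome, which translates the few proteins encoded in mitochondrial DNA, mostly fell between 1 and 3 weeks: 61 of its 78 genes fell and 2 rose in kidney, where 20.3% of all genes were lower, and 43 fell and 1 rose in spleen, where 15.0% were lower, with log2 fold changes of -2.46 and -1.69 for Mrps28 and of -1.79 and -1.36 for Mrpl27. At 1 week 40 were higher and 2 lower in kidney than in spleen, where 29.2% of all genes were higher and 20.3% lower, the opposite direction to the core members. In recipient against naive spleen 47 were higher and 2 lower at 1 week, where 19.5% of all genes were higher and 29.0% lower, and 0 and 2 at 3 weeks (4.21% and 2.69%), Mrpl27 at 1 week higher by 1.32 ± 0.16. At 3 weeks 22 were higher and 11 lower in kidney, where 42.7% of all genes were higher and 16.6% lower, with Mrps6 higher by 1.27 ± 0.13. Under the 24-week labels against 3 weeks the list was split, with 18 higher and 13 lower in kidney (13.6% and 51.5% of all genes) and 14 and 16 in spleen (27.3% and 23.4%).

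Assembly factors, which build ribosomes in the nucleolus, were lower in the graft at 3 weeks, when 13 of 15 were lower in kidney and 0 higher (16.6% and 42.7% of all genes), with Wdr12, needed for large subunit maturation (-1.34 ± 0.13), and Dkc1, the pseudouridine synthase of ribosomal RNA (-1.21 ± 0.10), leading. Under the 24-week labels 13 were higher in kidney than in spleen, where 12.8% of all genes were higher, and 14 were lower in the libraries labelled 24-week spleen than at 3 weeks, where 23.4% of all genes were lower (Polr1b, a subunit of RNA polymerase I, -1.59 ± 0.30). From 1 to 3 weeks in kidney 7 fell and 3 rose (20.3% and 50.1% of all genes), among them Npm1 of the nucleolus (-1.12 ± 0.07) and Polr1a (0.87 ± 0.10). In rejecting against accepted kidney 7 were higher and 3 lower, shares near those over all genes (52.8% and 13.5%), with Polr1a higher by 1.30 ± 0.15.

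Of the translation list 12 of 20 fell and 6 rose in kidney from 1 to 3 weeks (20.3% and 50.1% of all genes), Eif5a (-1.43 ± 0.11) and Btf3, which binds nascent chains (-1.14 ± 0.08), falling and Eif4a2 rising (1.27 ± 0.11). In spleen 8 fell and 4 rose (15.0% and 24.4% of all genes), with Btf3 at -0.83 ± 0.08. Between kidney and spleen at 3 weeks 9 were lower and 1 higher (16.6% and 42.7% of all genes), with the elongation factor Eef1b2 at -0.93 ± 0.07. In rejecting kidney 13 were lower and 3 higher (13.5% and 52.8% of all genes), Btf3 by -1.58 ± 0.11 and Tpt1 by -1.33 ± 0.11. Of the 14 mTOR genes, 8 rose and 5 fell in kidney from 1 to 3 weeks (50.1% and 20.3% of all genes). The list median, 0.43, was near the 0.40 over all genes, so the list as a whole did not stand out. Its log2 fold changes ran from -0.86 to 1.66, with the brake Tsc1 (1.66 ± 0.13) and Rptor (1.25 ± 0.11) rising. Tsc1 rose in spleen too (1.24 ± 0.16). Myc, a driver of ribosome production, was lower in kidney than spleen at 3 weeks (-1.05 ± 0.18) and higher under the 24-week labels (1.00 ± 0.22). Scaled to the members alone, Myc did not pass under the 24-week labels (0.47). In rejecting kidney 9 of the 14 mTOR genes were higher and 2 lower than in accepted kidney (52.8% and 13.5% of all genes). The list median there was 0.82 against 0.67 over all genes. Its log2 fold changes ran from -0.96 to 2.62, with Rptor at 2.62 ± 0.13 and Pdcd4 at 1.89 ± 0.25. All 4 lists were chosen with results of these libraries known.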

How the data were processed

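Single cells sorted for CD45 were profiled with 10x Genomics 3′ libraries, and the authors deposited raw UMI counts per gene and cell for 9 CD8 matrices, with Cell Ranger and mm10 named in the submitters' processing notes. The authors' filters on UMIs, mitochondrial content and detected genes were applied before deposit, and doublets were not called again here. Cells of each library tag with at least 1 UMI of Cd8a or Cd8b1 were summed, because cells are not replicates. Genes in all 9 matrices (16243) entered 1 edgeR 4.0.16 quasi-likelihood fit of 32 libraries and 9 groups (R 4.3.3) with plain library totals, filterByExpr kept 12247, and p-values were adjusted by Benjamini-Hochberg with a threshold of 0.05. The SE is the log2 fold change over the root of F. The fit was also run on simulated counts in which few genes changed and groups otherwise had the same means. Far more genes passed in most comparisons here, so that run cannot decide whether plain totals are apt. UMI shares were compared by exact two-sided permutation tests. Those of kidney against spleen took the libraries as independent and were not paired by recipient. Libraries held 153266 to 22782080 UMIs, with a median of 1764 to 6069 per cell, and a smaller library gives less precise values. Coding lengths and shared 90-base windows came from the GRCm38 annotation and transcripts, and starts from RefSeq, which gave 57 of 77 core members.

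At 1 week the correlation of same-numbered kidney and spleen deviations was 0.124, 0.112 and 0.248, each above the cut of 0.1. It was 0.296, 0.0935, 0.0561, 0.0542 and 0.0341 at 3 weeks, and 0.0326, 0.0576 and 0.112 under the 24-week labels. For number 5 at 3 weeks and number 1 at 24 weeks another library correlated more. The labels do not tie a kidney library to a spleen library, and correlations this low cannot do so. Whether the numbers mark the same recipient is thus not settled at any of these times. Genes were drawn from a set given by rule. It held in each comparison the 5 highest and the 5 lowest core members by log2 fold change. It also held stalk proteins, paralog pairs and, from each companion list, the 2 at either end. Only part of this set is named in the text, so the genes named for a comparison need not be its complete top or bottom. The highest and lowest members of a group and the genes of a count of 5 or fewer were named after their values were seen. The members, lists and tests were chosen with earlier results of these data known. Alternatives were TMM, DESeq2 1.42.0, other totals, other sets of cells, no filter, the compared groups alone, a replicate block and leaving out each library. One class of marked cells and one marker list fixed for them are not reported here.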

Additional observations from a re-analysis of the deposited data

Results flagged for a closer look

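Single libraries stood far from the other 4 of their group in 11 of the 129 pairs of a group with a gene or the share that were examined, where chance gives about 1 in 20. The value given first is the gap to the nearest library over the range of the group. In naive spleen, replicate 2 was low for Rpl3 (0.777, 3151 CPM against 3577 to 3700), Rplp0 (0.712, 5355 CPM against 6025 to 6296) and Rps10 (0.723, 6262 CPM against 6837 to 7057), and replicate 5 was low for Rpl22l1 (0.848, 986 CPM against 1122 to 1147). In accepted kidney at 3 weeks, replicate 1 was high for Rpl3 (0.714, 2600 CPM against 2277 to 2369), Rpl9 (0.733, 3154 CPM against 2410 to 2609), Rps10 (0.732, 4117 CPM against 3170 to 3423) and Rps18 (0.787, 3902 CPM against 3593 to 3659). In recipient spleen at 3 weeks, replicate 3 was high for Rplp2 (0.729, 6634 CPM against 5776 to 6009), and replicate 2 for Rps19 (0.758, 7460 CPM against 6672 to 6863) and Rps20 (0.858, 9542 CPM against 8443 to 8600).

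The change from 1 to 3 weeks differed between accepted kidney and recipient spleen by test. For the share of UMIs the difference was -5.83 points (exact permutation of time labels within each tissue, p = 0.000638, and per library number, p = 0.0357, each the smallest it can give), and 34 of 84 members passed the interaction term of edgeR, where 30.4% of all genes did. The first of these p-values has as its null that neither tissue changed. On the log2 scale the difference was -1.02 for Rpl28, -1.01 for Rps27l, -0.95 for Rpl41, -0.94 for Rpl35, -0.94 for Rplp0, -0.89 for Rps2, -0.51 for Rpl22l1, -0.47 for Rpl36al, -0.44 for Rpl22 and 0.34 for Rpl13a.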

How the results depend on the processing

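Of 200 alternative values for the shares and counts of members, libraries left out not counted, 180 kept their direction and side of the threshold or stayed within 1.5 times, and of 2566 for single genes 2429 did, 82 lost and 31 gained a call. Scaled to the members' own totals, 42 members passed for the 24-week spleen label against 3 weeks (57.7% of all genes), 26 for kidney against spleen at 1 week (57.1%), 42 at 3 weeks (79.4%), 34 under the 24-week labels (66.1%), 22 for the difference between tissues (40.6%) and 0 for recipient spleen at 3 weeks against naive (5.84%). The last was 6 in all matrix cells, 1 without cells bearing UMIs of other types, 5 with the compared groups alone, 4 with totals without the members and 0 to 4 with a library left out. The difference between tissues was 53 with TMM, 60 with DESeq2 and 52 with totals without the members. In all matrix cells recipient spleen at 3 weeks differed from naive by -2.51 points. Without thinning the PD-1 difference in kidney was -0.264 points and the difference of dividing cells in spleen -4.12, and in 4 other random draws of the thinned UMIs, chosen after seeing the data, the latter passed at -6.12, -5.70, -6.44 and -5.83. Directions turned with TMM and DESeq2 for Rplp1 from 1 to 3 weeks in kidney (-0.0813 and -0.0768), Rpl38 (0.0437 and 0.0116) and Rpl23a (0.29 and 0.26, and 0.14 with totals without the members) for the 24-week kidney label, and for the rejecting kidney Rpl6 (-0.10 and -0.053), Rpl41 (-0.18 and -0.13), Rpl31 (-0.20 and -0.15) and Rpl23a (-0.39 and -0.34), with TMM alone for Rps15 (-0.0084). In kidney against spleen at 3 weeks, Rpl13a was -0.21 with TMM, -0.23 with totals without the members and -0.19 with DESeq2, Rpl27 -0.24, -0.27 and -0.23, and with the members' own totals Rps15a was 0.54 and Rplp2 0.11. The cause was not tested, beyond that TMM and DESeq2 centre all genes near 0 and the members' totals centre the members.

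Of 211 values with a library left out, 160 kept their side or size, 40 shares rose above and 1 fell below an unadjusted p of 0.05, none of these comparisons being below it when adjusted over 10, and 10 counts moved. With a library left out the difference in share ran from -2.38 to -1.87 points for kidney 3 weeks against 1 week, 15.02 to 15.92 for the 24-week kidney label, 3.36 to 4.13 for spleen 3 weeks against 1 week, -11.7 to -10.6 for the 24-week spleen label, -5.23 to -4.45 and -1.46 to -0.753 for spleen at 1 and 3 weeks against naive, and -6.83 to -4.47 for dividing cells in spleen, where fewer libraries raise the smallest p. Pairing: the replicate block gave 51 members (3 higher and 48 lower) at 1 week, 77 (1 and 76) at 3 weeks and 69 (68 and 1) under the 24-week labels, and moved no count by over 1.5 times. Depth limits Rpl39l, at 0 to 8.56 CPM, and Rpl3l, at 0 to 0.513 CPM, of which no direction can be read.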
